A study of Mus musculus with 6 samples.

Results

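The mature microRNAs (miRNAs) mmu-miR-375-3p, mmu-miR-7a-5p and mmu-miR-7b-5p are best known from endocrine and neuroendocrine cells. They were taken by name, as 3 of the 1907 miRNA names listed for cultured mouse dermal fibroblasts. miR-375-3p had 19.1 ± 3.52 CPM (library-scaled counts, mean ± SD, n = 3 libraries per group) in fibroblasts with active Nrf2, against 6.62 ± 1.85 CPM in controls. miR-7a-5p stood at 4.90 ± 0.37 CPM against 4.35 ± 0.67 CPM, with overlapping groups, and miR-7b-5p had no count in any library. The members were selected on what they are known for and on their measured levels in caNrf2 against ctrl libraries, so these levels are given as a description and support nothing further.

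The cells were primary fibroblasts from the skin of newborn mice, at passage 1 after 6 days of growth in culture. In the caNrf2 group (3 libraries, genotype Col1a2Cre-caNrf2) they carried a constitutively active mutant of Nrf2, the transcription factor of antioxidant and detoxification genes. The ctrl group (3 libraries, genotype Col1a2Cre-wt) carried the Cre recombinase alone. Both groups thus shared the Cre, which the Col1a2 promoter restricts to fibroblasts and other cells that use this collagen promoter. Both also shared a mixed background of 50% C57Bl/6 and 50% FVB/N. The series design gives 3 mice per genotype. Nrf2 is no miRNA, so the counts hold no check of the transgene.

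miR-375 is abundant in the insulin-producing beta cells of the pancreatic islets, where it restrains insulin secretion. The miR-7 family is conserved from flies to mammals and is abundant in islets, the pituitary and parts of the brain. Its level is set by other noncoding RNAs: the circular RNA Cdr1as holds many miR-7 sites, miR-671-5p directs the cutting of Cdr1as, and the long noncoding RNA Cyrano directs the destruction of miR-7. miR-7 has also been reported to repress Keap1, the adaptor that sends Nrf2 to degradation. In skin, the neuroendocrine cells are the Merkel cells of the epidermis, which are not fibroblasts.

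The miR-7 sequences are shown first because they decide which reads can be told apart. They come from RefSeq (build GRCm38.p6), in which miR-7a-5p, miR-7b-5p and all 4 of the other arms of the members' precursors were matched. Capitals mark the seed, bases 2 to 8, which sets most of the target choice of a miRNA.
miR-7a-5p: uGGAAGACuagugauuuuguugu
miR-7b-5p: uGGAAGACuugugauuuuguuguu
miR-7a-1-3p: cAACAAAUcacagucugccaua
miR-7a-2-3p: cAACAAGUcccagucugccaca
miR-7b-3p: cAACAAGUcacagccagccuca
Of 1679 mature names in the RefSeq table, only miR-7a-5p and miR-7b-5p carried the seed GGAAGAC. Counted from the 5′ end, they differ by A10U within the 23 bases of miR-7a-5p, and miR-7b-5p is 1 base longer. The opposite arms are more distinct. miR-7a-1-3p and miR-7a-2-3p differ at 3 of 22 positions (A7G, A10C and U21C), and miR-7a-1-3p and miR-7b-3p at 5 (A7G, U14C, U16A, A20U and U21C). The 3p arms therefore name their precursor, while miR-7a-5p does not.

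miR-7a-5p is cut from the precursors Mir7-1 and Mir7-2. Mir7-1 lies at chr13:58392779-58392886, minus strand, in an intron of Hnrnpk, a gene for an abundant RNA-binding protein, and overlaps 12 annotated Hnrnpk transcripts but none of their exons (GENCODE M21, GRCm38). Mir7-2 lies at chr7:78888277-78888373, plus strand, outside annotated genes, 7481 bases from Aen. Mir7b lies at chr17:56242988-56243098, plus strand, 183 bases from the long noncoding RNA AC026385.1. Mir375 lies at chr1:74900658-74900721, minus strand, between Cryba2 (7515 bases away) and Cfap65 (1350 bases away). The hairpin of Mir7-1 is printed with its 5p and 3p arms in capitals, since it is the only miR-7 precursor whose own arm was counted in these libraries.
Mir7-1: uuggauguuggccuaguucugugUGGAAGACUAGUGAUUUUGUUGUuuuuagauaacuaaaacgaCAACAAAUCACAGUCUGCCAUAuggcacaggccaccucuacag

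The libraries held 10443268 to 28237159 counts, and 1050 to 1200 names had at least 1 count. A floor of 3 counts corresponded to 0.106 to 0.287 CPM in a library. Fibroblast miRNAs dominated: the 8 listed for this cell type, among them miR-22-3p, miR-21a-5p and miR-143-3p, summed to 456737 to 467475 CPM in ctrl and 479519 to 517266 CPM in caNrf2 libraries. Of these 8, 1 rose and 3 fell at an edgeR adjusted p under 0.05. Of all tested miRNAs, 14.1% rose and 11.6% fell at that threshold. Without ctrl library 3, 2 of the 8 fell and 0 rose. Both members with counts were minor species, since miR-375-3p ranked 400 by mean level in ctrl and 326 in caNrf2 fibroblasts, and miR-7a-5p ranked 434 and 436.

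miR-375-3p had 52, 102 and 175 counts in ctrl libraries 1, 2 and 3, or 5.01, 6.21 and 8.64 CPM. It had 217, 482 and 617 counts in caNrf2 libraries 1, 2 and 3, or 15.2, 20.03 and 22.1 CPM. All caNrf2 libraries were above all ctrl libraries. The log2 fold change in the fit over all miRNAs was 1.52 ± 0.22 (SE), a 2.86-fold higher level. It stood at place 17 of the 697 tested miRNAs by log2 fold change.

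**Figure D1:**
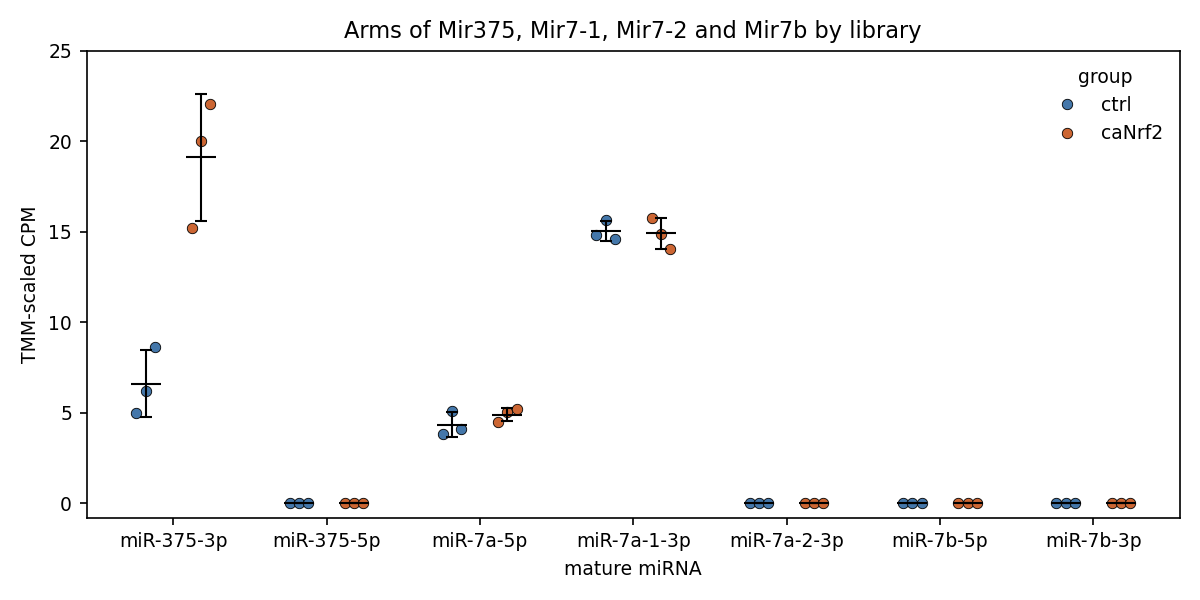
TMM-scaled CPM of each mature arm of Mir375, Mir7-1, Mir7-2 and Mir7b, with 1 point per library (ctrl blue, caNrf2 orange) and the mean ± SD of each group in black. miR-375-3p sits at 5.01 to 8.64 CPM in ctrl and 15.2 to 22.1 CPM in caNrf2 libraries, the miR-7a arms overlap between groups, and the other 4 arms are at 0.

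Within each group, miR-375-3p was lowest in the library with the fewest counts and highest in the one with the most. Across the groups, caNrf2 library 1, with 13733970 counts, had 15.2 CPM, while ctrl libraries 2 and 3 had 6.21 and 8.64 CPM. These 2 ctrl libraries held 16446668 and 20595024 counts. The part of library size in the miR-375-3p levels was not tested. The variance of the miR-375-3p counts was 7.15 times the counting variance among ctrl libraries and 8.50 times among caNrf2 libraries. For miR-7a-5p the same ratios were 1.65 and 0.21, estimated from only 3 libraries each. The passenger arm miR-375-5p had 0 counts in all 6 libraries, against 329 ctrl and 1316 caNrf2 counts of miR-375-3p.

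miR-7a-5p had 40, 84 and 83 counts in ctrl libraries 1, 2 and 3 and 64, 121 and 145 in caNrf2 libraries 1, 2 and 3. These counts gave 3.85, 5.11 and 4.10 CPM in ctrl and 4.49, 5.03 and 5.19 CPM in caNrf2 libraries. ctrl library 2 was above caNrf2 libraries 1 and 2, so the groups overlapped. The log2 fold change was 0.17 ± 0.15 (SE).

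miR-7b-5p, the only other carrier of the seed, had 0 of the 113619808 counts of all libraries, which allows a level of up to 0.0264 CPM (3 counts over the series; counting error only). Its opposite arm miR-7b-3p also had 0 counts in all 6 libraries. All of the 207 ctrl and 330 caNrf2 counts of the miR-7 5p arms were thus listed under miR-7a-5p. In the smallest of these samples, the 40 counts of ctrl library 1, the exact Clopper-Pearson interval of the miR-7a-5p share began at 91.2%. Reads of names that differ by 1 base can be assigned to one of them in counting, and how the authors handled such reads is not given in the sources used here. Among 49 names with another name 1 substitution away, 7 (14.3%) were at 0 in all libraries, against 415 of 1623 names (25.6%) matched to the RefSeq table. The 49 are part of the 1623, and these shares do not show how reads of near-identical names were assigned.

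The opposite arm of Mir7-1 was the most abundant miR-7 species. miR-7a-1-3p had 154, 257 and 296 counts in ctrl libraries 1, 2 and 3, or 14.8, 15.6 and 14.6 CPM. It had 225, 358 and 393 counts in caNrf2 libraries 1, 2 and 3, or 15.8, 14.9 and 14.1 CPM. The groups overlapped almost fully. miR-7a-1-3p was no member and was tested in the fit over all miRNAs. It gave -0.01 ± 0.14 (log2 fold change ± SE), and the edgeR adjusted p was 0.956. Its 95% interval ran from 0.80-fold to 1.22-fold, and the sign flipped without TMM scaling (0.01). The arm of the other miR-7a precursor, miR-7a-2-3p, had 0 counts in all 6 libraries. Of the 4 other arms of the members' precursors 1 was tested and 0 were called (edgeR; 0 at an unadjusted p under 0.05; 0 by DESeq2).

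miR-7 is usually described with the 5p arm as its active strand, yet here the 5p arm was the smaller one. miR-7a-5p made up 20.6%, 24.6% and 21.9% of the counts of miR-7a-5p and miR-7a-1-3p together in ctrl libraries 1, 2 and 3. In caNrf2 libraries 1, 2 and 3 it made up 22.1%, 25.3% and 26.95%. The exact 95% intervals of all 6 libraries lay between 15.2% and 30.9%, below an even split. The group means of 22.4% ± 2.05 and 24.8% ± 2.44 (SD, n = 3) overlapped within their spread. A larger 3p than 5p count was seen for 163 of 329 precursors with both arms named and at least 100 counts over both. Precursors that share an arm were counted separately. This number was taken whichever arm is usually the active strand, so it does not give how often a usual 5p arm was smaller. Reads of miR-7a-5p fit both of its precursors, and whether all such reads were kept is not given in the sources used here. Names with several precursors did hold counts, for example 1347132 of miR-16-5p, which is cut from Mir16-1 and Mir16-2. Of 51 names with 2 or more precursors 8 were at 0 in all libraries, which does not show whether part of their reads was lost. The part of read assignment in the arm share was not tested.

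**Figure D2:**
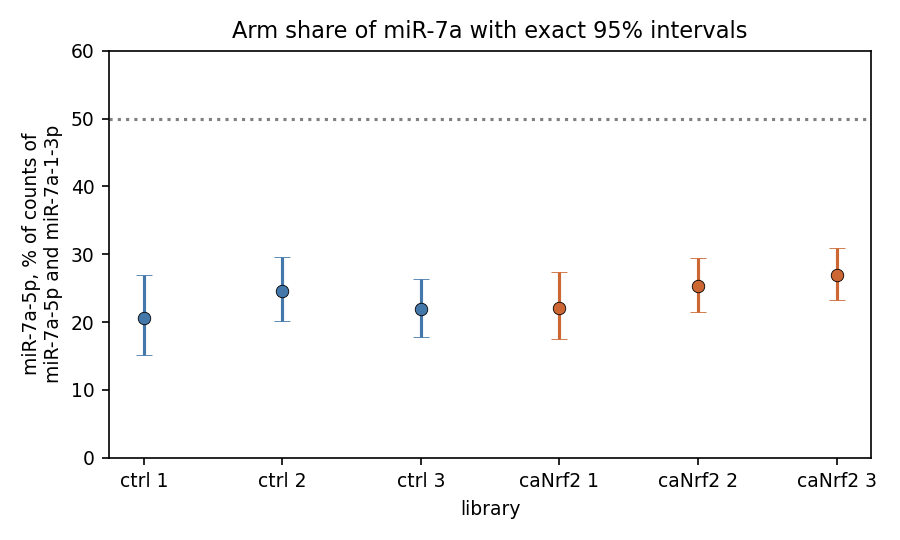
Share of miR-7a-5p, in percent, among the counts of miR-7a-5p and miR-7a-1-3p in each library, with exact 95% intervals that cover counting error only (ctrl blue, caNrf2 orange; the dotted line marks an even split). The shares lie between 20.6% and 26.95%, and the intervals of all libraries overlap.

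The levels of the counted arms can be put in order within each group. In ctrl fibroblasts miR-7a-1-3p was highest and did not overlap with miR-375-3p, whereas miR-375-3p and miR-7a-5p overlapped (5.01 to 8.64 against 3.85 to 5.11 CPM). In caNrf2 fibroblasts miR-375-3p (15.2 to 22.1 CPM) overlapped with miR-7a-1-3p (14.1 to 15.8 CPM) and was above miR-7a-5p in all 3 libraries. The ratio of miR-375-3p to miR-7a-1-3p counts was 0.34, 0.40 and 0.59 in ctrl libraries 1, 2 and 3 and 0.96, 1.35 and 1.57 in caNrf2 libraries 1, 2 and 3, so in caNrf2 library 1 miR-7a-1-3p was still the higher of the pair. The ratio of miR-375-3p to miR-7a-5p counts was 1.54 ± 0.49 (SD, n = 3) in ctrl libraries, from 1.21 to 2.11, and 3.88 ± 0.44 in caNrf2 libraries, from 3.39 to 4.26. This ratio is taken within a library and does not depend on library scaling.

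Of the 3 members, miR-375-3p and miR-7a-5p passed the filter on low counts. In the fit over all miRNAs 1 of these 2, miR-375-3p, was called at an adjusted p under 0.05, where 25.7% of the 697 tested miRNAs were called and 14.1% were called as higher. The ctrl and caNrf2 libraries were also fully apart for miR-375-3p, as for 41.6% of tested miRNAs in either direction and 23.7% in the direction of higher levels in caNrf2. Nothing is read from these counts, because the choice of members used this contrast. The median log2 fold change of all tested miRNAs was 0.03.

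**Figure D3:**
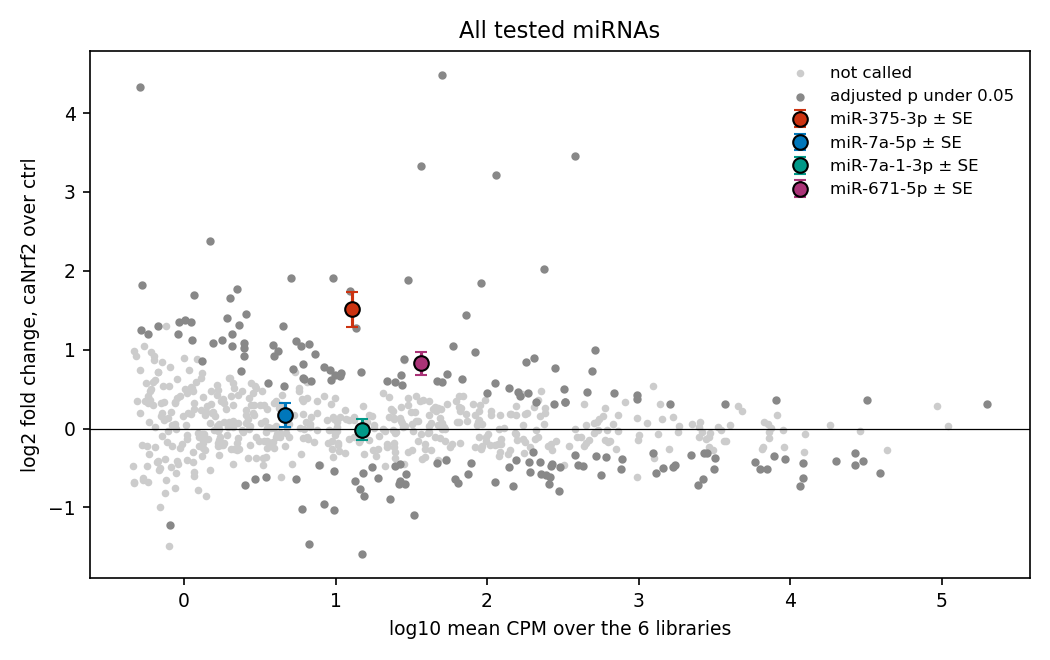
log2 fold change (caNrf2 over ctrl) against the log10 of the mean CPM for all 697 tested miRNAs, with the 179 called ones in dark grey; coloured points show miR-375-3p, miR-7a-5p, miR-7a-1-3p and miR-671-5p with their SE. miR-375-3p stands at 1.52 and miR-671-5p at 0.83, while the miR-7a arms lie near 0 at 0.17 and -0.01.

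miR-671-5p, which directs the cutting of the miR-7-binding circular RNA Cdr1as, was the one measured miRNA of the miR-7 circuit outside the family. It rose from 26.4 ± 3.95 to 46.8 ± 1.60 CPM (SD, n = 3), or by 0.83 ± 0.14 (SE) on the log2 scale, with an edgeR adjusted p of 0.00224. The ctrl libraries 1, 2 and 3 had 30.5, 22.6 and 26.2 CPM and the caNrf2 libraries 48.04, 47.5 and 45.03 CPM, so the groups did not overlap. The groups were also fully apart for 41.6% of all tested miRNAs, and for 23.7% with higher levels in caNrf2. At the edgeR threshold, 14.1% of all tested miRNAs were called as higher. miR-671-5p was called in all 13 alternatives, with adjusted p up to 0.0138. It was listed with earlier results of these data known, so its change is given as a description. It was the smaller arm of its precursor, with 4304 counts over all libraries against 33187 of miR-671-3p. Cdr1as and Cyrano are not miRNAs and were not measured, and miR-7a-5p itself had the overlapping values given above.

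Other miRNAs reported to repress Keap1 had no called member. The 4 listed, miR-200a-3p, miR-141-3p, miR-23a-3p and miR-24-3p, were all tested and had log2 fold changes from 0.12 to 0.35 with a median of 0.21 (edgeR; 0 at an unadjusted p under 0.05; 0 by DESeq2). Of 9 tested miRNAs reported to repress Nrf2 itself, 3 rose and 0 fell (14.1% of all tested miRNAs rose and 11.6% fell; DESeq2 called 2 of the list), with a median of 0.05. miR-144-3p had the lowest value, -0.998 ± 0.389 (edgeR adjusted p = 0.0873). It rested on few reads, with 46 counts over the ctrl and 32 over the caNrf2 libraries (mean 0.69 CPM). The risen ones were miR-142a-5p (1.85 ± 0.26, edgeR adjusted p = 7.25e-04), miR-27b-3p (0.37 ± 0.10, edgeR adjusted p = 0.0183) and miR-340-5p (0.33 ± 0.10, edgeR adjusted p = 0.0376). The miR-27b-3p call was lost without ctrl library 2 or 3 or caNrf2 library 1 or 2 (adjusted p from 0.0557 to 0.0774). That of miR-340-5p was lost in 9 of 13 alternatives, among them each fit without 1 library other than caNrf2 library 1, where the adjusted p rose to at most 0.202.

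The other tested islet and neuroendocrine miRNAs had log2 fold changes from -0.25 to 0.68, all below that of miR-375-3p. Of 15 listed, all had at least 1 count and 9 were tested; 1 rose and 0 fell, a share near the 14.1% of all tested miRNAs that rose, and their median change was 0.26 on the log2 scale. The list summed to 945 to 1148 CPM in ctrl and 1102 to 1479 CPM in caNrf2 libraries, with overlap. Its most abundant members were miR-182-5p, miR-132-3p and miR-183-5p, with means of 818, 243 and 69.4 CPM over the 6 libraries. miR-9-5p, known from neurons and from insulin-producing cells, rose from 7.58 ± 1.91 to 12.3 ± 0.98 CPM (log2 fold change 0.68 ± 0.19, edgeR adjusted p = 0.0219). Its call did not survive the removal of ctrl library 1 (adjusted p = 0.0613), nor that of caNrf2 library 1, 2 or 3 (0.0527 to 0.0687). The cluster of miR-182-5p, miR-183-5p and miR-96-5p, found in sensory and neuroendocrine cells and in epithelium, had log2 fold changes of 0.34, 0.41 and 0.34 and did not pass. miR-184-3p, abundant in islets and in the lens and epidermis, had -0.25 ± 0.20 (edgeR adjusted p = 0.405).

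Of the 15 listed, 6 had too few counts to be tested. miR-216a-5p, miR-216b-5p and miR-217-5p, known from the exocrine pancreas, had 1, 2 and 5 counts over all libraries. miR-124-3p, the main neuronal miRNA, had 8 counts over the ctrl and 9 over the caNrf2 libraries, miR-153-3p had 7 and 16, and miR-9-3p had 17 and 31.

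Markers of other cells of the skin were also counted. All 7 epithelial miRNAs were tested and 0 were called (edgeR; 1 at an unadjusted p under 0.05; 1 by DESeq2), and their median change was 0.36 on the log2 scale. They summed to 1035 to 1865 CPM in ctrl and 1600 to 2121 CPM in caNrf2 libraries. miR-205-5p, the main miRNA of keratinocytes, had 1388, 752 and 897 CPM in ctrl libraries 1, 2 and 3 and 1305, 1524 and 1594 CPM in caNrf2 libraries 1, 2 and 3 (log2 fold change 0.54 ± 0.19, edgeR adjusted p = 0.0590; it passed in 5 of 13 alternatives). ctrl library 1 had the highest miR-205-5p of the ctrl libraries and the lowest miR-375-3p. Among the caNrf2 libraries, both miRNAs were lowest in library 1 and highest in library 3. The other epithelial miRNAs were also lowest in caNrf2 library 1, but each was highest in caNrf2 library 2. For example, miR-203-3p had 289.5 CPM in caNrf2 library 2 and 289.2 CPM in library 3, and miR-200b-3p had 103.7 and 100.8 CPM. Both melanocyte miRNAs, miR-204-5p and miR-211-5p, were tested and 0 were called (edgeR; 0 at an unadjusted p under 0.05; 0 by DESeq2), and they summed to 6.91 to 10.1 CPM in ctrl and 9.47 to 10.9 CPM in caNrf2 libraries.

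Some blood cell and neural miRNAs differed between the genotypes. Of 6 tested blood cell miRNAs 3 rose and 0 fell, beside 14.1% of all tested miRNAs that rose and 11.6% that fell, and the median change was 1.11 on the log2 scale. The list summed to 37.0 to 70.7 CPM in ctrl and 157 to 234 CPM in caNrf2 libraries, without overlap. Most of these sums was miR-142a-5p, with 23.9 to 51.2 CPM in ctrl and 119.7 to 181.2 CPM in caNrf2 libraries. The risen ones were both arms of miR-142a, found in most blood cells, and miR-223-3p, known from myeloid cells. The others did not pass: the red cell miRNAs miR-451a and miR-144-3p had 0.48 ± 0.20 and -0.998 ± 0.389, and the lymphocyte miRNA miR-150-5p had -0.10 ± 0.17. The mean level of miR-144-3p was only 0.69 CPM. Of 5 tested neural and Schwann cell miRNAs 3 rose and 0 fell, again beside 14.1% and 11.6% of all tested miRNAs, with a median of 0.41. They were miR-138-5p (3.46 ± 0.15), miR-338-3p (0.60 ± 0.16, edgeR adjusted p = 0.0204) and miR-128-3p (0.41 ± 0.09, edgeR adjusted p = 0.00551), while miR-218-5p (0.04 ± 0.12) and miR-219a-5p (-0.01 ± 0.20) did not pass. The list summed to 585 to 763 CPM in ctrl and 1267 to 1466 CPM in caNrf2 libraries, and without miR-138-5p, which had means of 63.2 and 694 CPM, to 534 to 689.7 CPM and 663 to 696 CPM, with overlap. The miR-338-3p call was lost without ctrl library 1 (adjusted p = 0.0644) or caNrf2 library 2 (0.0818) or 3 (0.0779). The part of other cell types in the miR-375-3p difference was not tested, and in bulk RNA more cells of a type and more of the miRNA per cell cannot be told apart.

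**Figure D4:**
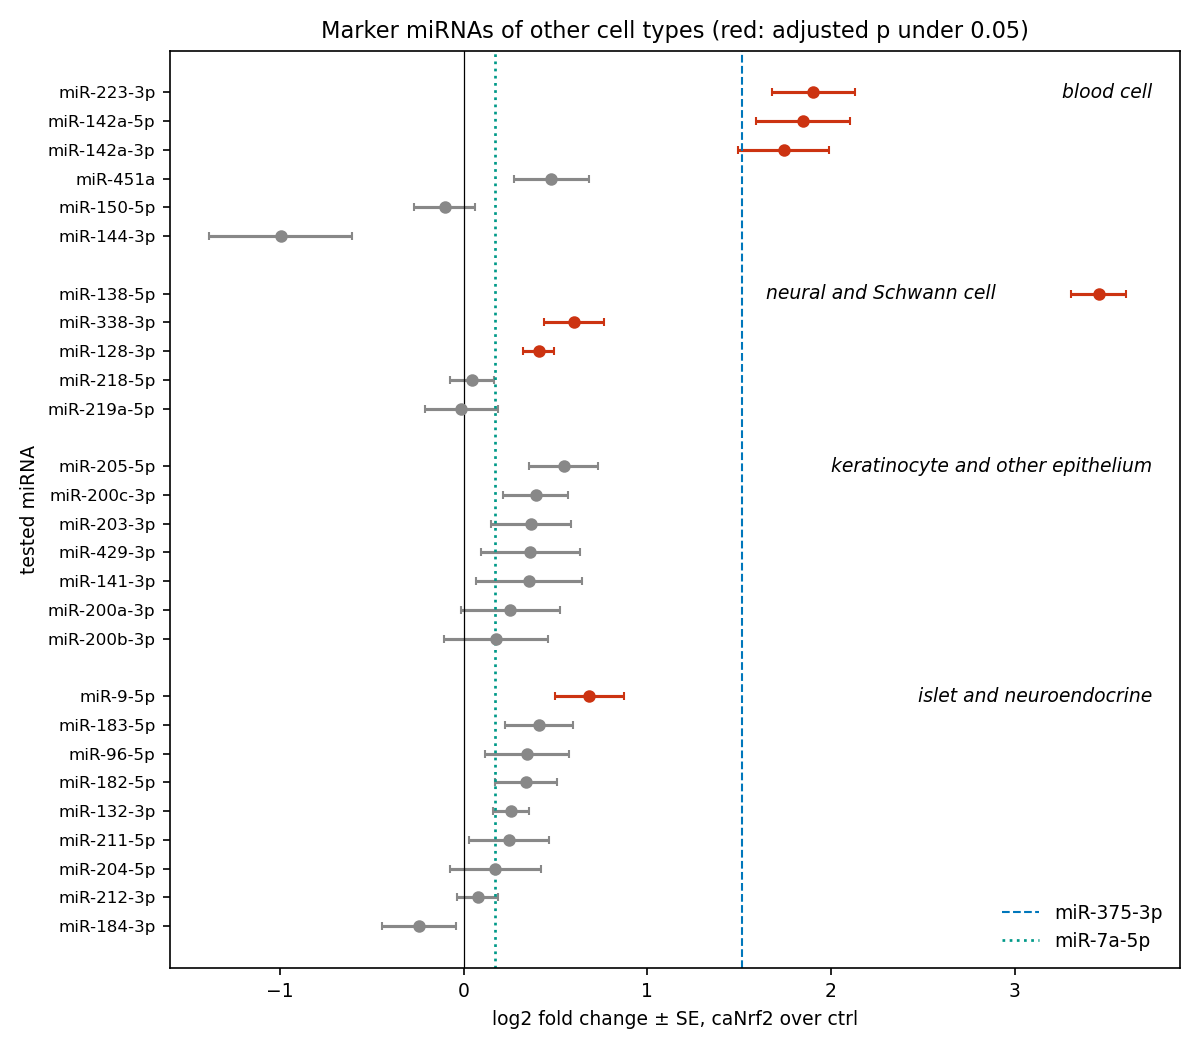
log2 fold change ± SE (caNrf2 over ctrl) of the tested marker miRNAs of 4 cell type lists, in red where the edgeR adjusted p was under 0.05; dashed and dotted lines mark miR-375-3p (1.52) and miR-7a-5p (0.17). miR-138-5p and the 3 risen blood cell miRNAs lie to the right of miR-375-3p, and all islet and epithelial markers lie to its left.

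The miRNAs with the profile most like miR-375-3p over the 6 libraries were found among the 370 other tested miRNAs whose mean level reached 10 CPM. Likeness was the root mean square difference of the log2 CPM values after centring each miRNA on its own mean. The nearest were miR-582-3p (0.29), miR-142a-3p (0.31), miR-142a-5p (0.31), miR-129-2-3p (0.33) and miR-672-5p (0.36), against a median of 0.85 over all 370. miR-582-3p stood at 38.5 ± 6.58 and 79.9 ± 1.11 CPM in ctrl and caNrf2 libraries, and miR-672-5p at 39.01 ± 3.13 and 106 ± 7.16 CPM.

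For miR-7a-5p the nearest of 371 were miR-674-3p (0.07), miR-5099 (0.07), miR-1964-3p (0.08), miR-298-5p (0.09) and miR-431-3p (0.10). Their log2 fold changes ran from 0.10 to 0.23, and none passed the edgeR threshold (the lowest adjusted p, that of miR-298-5p, was 0.0883). A flat profile was thus near many others, as the median difference from miR-7a-5p over the 371 was only 0.25. The nearest profiles of miR-375-3p and miR-7a-5p held no miRNA in common. Nothing is read from this, because the difference measure includes the size of the spread over the libraries. That spread, the root mean square after centring, was 0.81 for miR-375-3p and 0.16 for miR-7a-5p.

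**Figure D5:**
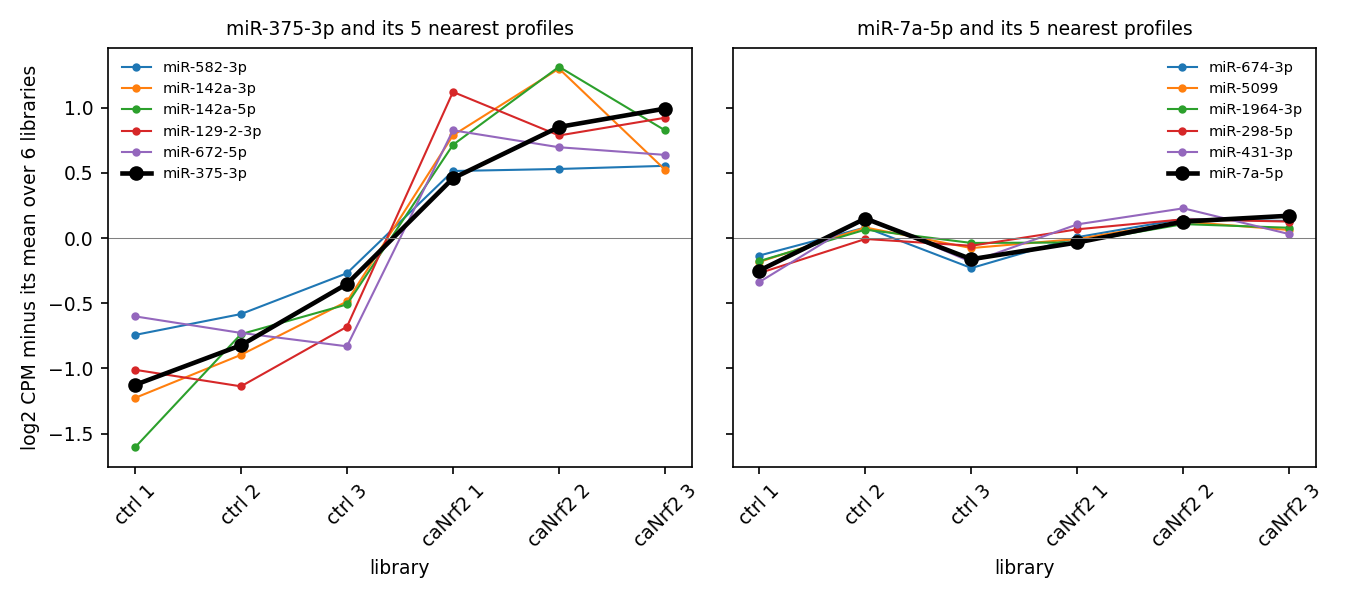
log2 CPM minus its mean over the 6 libraries for miR-375-3p (left, black) and miR-7a-5p (right, black) with the 5 nearest miRNAs of each; lines join the libraries of 1 miRNA and carry no order in time. The miRNAs on the left are below 0 in all ctrl and above 0 in all caNrf2 libraries. On the right, miR-7a-5p and its nearest profiles stay close to 0. The 5 nearest miRNAs on each side were picked for this likeness.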

How the data were processed

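Small RNA libraries of 3 ctrl and 3 caNrf2 fibroblast cultures were analysed from raw counts of reads per mature miRNA, 1 file per library, deposited by the authors without recorded normalization. Per the submitters' processing notes, CASAVA 1.8, cutadapt, Bowtie, featureCounts, edgeR and the mm10 build were used, and no source used here states their settings. The column headers name 1 sequencing lane for all libraries. Groups and replicate numbers came from the titles. The table of 1907 names was filtered with filterByExpr at a minimum count of 10, scaled with TMM factors (0.984 to 1.04) and tested for the group by the quasi-likelihood test of edgeR 4.0.16 (R 4.3.3), with Benjamini-Hochberg adjustment and a threshold of 0.05. CPM values are TMM-scaled, and SEs were derived from the F statistic. No molecular identifiers are named, so intervals and floors cover counting error only. Same-group libraries differed by at least 64.6 in chi-square per degree of freedom, so none was a copy.

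All members are described. Of each list its called miRNAs were named, otherwise the most abundant, and the 5 nearest profiles per member. miR-184-3p, the miR-182 cluster, the near-absent markers, miR-21a-5p and miR-143-3p were added outside that rule. The members and lists were chosen with earlier results of these data known. Alternatives were RLE factors, library totals, DESeq2 1.42.0, the table without its 5 most abundant miRNAs, other filters, a replicate block and leaving out each library.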

Additional observations from a re-analysis of the deposited data

How the results depend on the processing

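The log2 fold change of miR-375-3p kept its direction in all 13 alternatives, from 1.35 to 1.76, and both ends came from leaving out 1 library (1.35 without ctrl library 1, 1.76 without ctrl library 3). miR-7a-5p had values from 0.10 to 0.29 in 12 alternatives and could not be fitted under the stricter filter at 10 CPM, which it did not reach. miR-7a-1-3p, near 0 throughout, changed sign with library totals only (0.0096), under the filter at 10 CPM (0.00998) and in fits that left out 1 library, which ranged from -0.061 to 0.0193. Other changes of sign were in uncalled marker miRNAs, in fits without 1 library: miR-200b-3p ranged from -0.0597 to 0.56, miR-204-5p from -0.16 to 0.33 and miR-24-3p from -0.0301 to 0.31. The share of miR-7a-5p among the miR-7 5p counts was 100% in every setting, which the 0 counts of miR-7b-5p fixed in advance.

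Over all miRNAs 179 were called, 98 higher and 81 lower, and between 126 and 211 in the alternatives; 126 were called without ctrl library 3 and 211 with no filter. In the islet list 3 were called with no filter, and none without ctrl library 1, caNrf2 library 2 or caNrf2 library 3. In the epithelial list up to 2 were called. The labels give replicate numbers but no shared litter or day, and same-numbered libraries did not deviate together (r = 0.18, 0.11 and -0.22). With the replicate block 189 miRNAs were called, and miR-375-3p had 1.54 and miR-7a-5p 0.18. The zeros of miR-7b-5p, miR-7b-3p, miR-7a-2-3p and miR-375-5p allow levels of up to 0.0264 CPM over all libraries.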
